A study of Mus musculus with 8 samples.

Results

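The genes described are Pou3f2, Pou3f3, Pou3f4, Otx1, Otx2, Zic1, Zic2 and Zic5, transcription factor genes of the epiblast and of the anterior neural tissue that forms from it. They were taken from a list of 9 genes by the symbol that the platform annotation, or its current synonym, gives to each probe. Each of the 8 genes had 1 named probe among the 23473 gene probes, which name 16390 genes, and all 8 probes were among the 21661 tested. The other listed gene, Pou3f1, had no probe named for it and was not analysed here.

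The measurements came from 8 single-colour arrays of embryoid bodies, the floating aggregates in which mouse embryonic stem cells (ESCs) differentiate. All 4 groups were made from the iTbx6 T-GFP ESC line, whose name denotes an inducible Tbx6, a T-box transcription factor gene of early mesoderm, and a GFP reporter of the mesoderm gene T. The groups were DoxOn_day2, DoxOFF_day2, DoxOn_day4 and DoxOFF_day4, with or without doxycycline (Dox) and collected on day 2 or day 4, with 2 arrays each. All of them were grown in serum-free differentiation medium with no growth factors added, and after the first 2 days the bodies were dissociated and reaggregated for the 2 days up to day 4. The labels do not state the hours at which Dox was given. Nor do they say if separate cultures gave the 2 samples of a group. The p-values therefore cover only how far these samples differ, and that may be technical variation. Cells without the transgene but with Dox were not analysed here, so the action of Dox and that of Tbx6 cannot be told apart.

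Values are log2 of the spot intensity after the array's mean blank-spot level was subtracted and the arrays were quantile normalised. A probe counted as above background where it passed the blank mean plus 2 SD. Between 20197 and 20927 of the gene probes passed on each array. Across probes, the lowest correlation within a group was 0.993 and the highest between groups 0.985. The Tbx6 probe gave 5.21 and 5.48 in DoxOn_day2 against 5.59 and 5.49 in DoxOFF_day2, with the Dox arrays no higher. On day 4 it gave 6.10 and 6.23 with Dox against 5.50 and 5.58 without, a log2 change of 0.62 ± 0.12 (SE, limma adjusted p = 0.00915), and on day 2 the change was -0.20 ± 0.12 (adjusted p = 0.395). No source used here says whether this probe detects the transgene, so groups are named by their labels throughout.

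The POU3F genes encode class III POU-domain factors, which bind octamer-like DNA and are best known in the developing nervous system. OTX1 and OTX2 are bicoid-class homeodomain proteins of the forebrain and midbrain, and Otx2 is already active in the epiblast before the brain forms. ZIC proteins are zinc-finger relatives of the GLI factors: Zic2 and Zic5 are known from the epiblast and the forming neural plate, and Zic1 from the dorsal neural tube.

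RefSeq promoters on the GRCm38.p6 build were matched to 6 of the 8 genes, from 250 bases before to 50 bases after each annotated start. They comprised 9 windows, 4 of them for Otx2, and none was given for Otx1 or Zic2. A start-proximal window is shown for each of the 3 POU3F genes, which changed by very different amounts, and for Zic5, which changed the opposite way to them. Each runs 5′ to 3′ on the strand of the gene, and capitals mark CCAAT on either strand (written ATTGG where it lies on the other one). That motif was picked after the sequences had been seen. The Pou3f2 window is chr4:22488317-22488616 (minus strand), the Pou3f3 window chr1:42695518-42695817 (plus strand), the Pou3f4 window chrX:110814129-110814428 (plus strand) and the Zic5 window chr14:122465609-122465908 (minus strand).
Pou3f2: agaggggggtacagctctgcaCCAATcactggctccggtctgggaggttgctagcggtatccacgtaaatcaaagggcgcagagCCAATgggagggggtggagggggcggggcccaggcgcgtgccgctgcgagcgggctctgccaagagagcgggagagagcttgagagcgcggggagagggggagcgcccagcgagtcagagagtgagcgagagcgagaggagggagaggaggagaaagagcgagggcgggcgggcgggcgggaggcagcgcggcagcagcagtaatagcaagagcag
Pou3f3: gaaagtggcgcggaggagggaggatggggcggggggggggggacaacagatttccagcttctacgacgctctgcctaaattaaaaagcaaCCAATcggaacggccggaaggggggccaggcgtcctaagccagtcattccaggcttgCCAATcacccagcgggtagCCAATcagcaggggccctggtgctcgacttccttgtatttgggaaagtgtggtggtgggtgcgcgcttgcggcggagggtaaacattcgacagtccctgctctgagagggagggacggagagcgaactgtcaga
Pou3f4: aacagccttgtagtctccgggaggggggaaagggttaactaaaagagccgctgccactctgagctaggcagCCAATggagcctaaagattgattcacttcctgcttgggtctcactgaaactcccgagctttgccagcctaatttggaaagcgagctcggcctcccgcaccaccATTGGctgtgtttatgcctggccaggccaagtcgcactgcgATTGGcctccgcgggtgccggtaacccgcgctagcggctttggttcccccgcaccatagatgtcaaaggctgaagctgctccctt
Zic5: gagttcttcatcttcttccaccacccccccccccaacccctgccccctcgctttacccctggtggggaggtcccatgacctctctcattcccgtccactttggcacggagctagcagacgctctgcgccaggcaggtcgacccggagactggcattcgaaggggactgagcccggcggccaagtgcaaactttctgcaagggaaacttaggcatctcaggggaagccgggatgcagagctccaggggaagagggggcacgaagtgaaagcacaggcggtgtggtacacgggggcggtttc

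In the Pou3f4 window CCAAT lies at -179, -76 and -35 from the start. The Pou3f3 window holds it at -160, -103 and -84, and the Pou3f2 window at -229 and -166. Zic1 has 2 matches, 1 of the 4 Otx2 windows has 1, and the Zic5 window has none. Of the 32851 mouse promoters of the same length, 37.4% hold at least 1 CCAAT, 11.7% at least 2 and 3.37% at least 3. The T-box core AGGTGT, searched on both strands, was in none of the 9 windows and in 13.7% of all promoters, which says only that these letters are not in these windows. The octamer ATGCAAAT was likewise in none of them and in 1.74% of all promoters. The bicoid-type site TAATCC was in 1 Otx2 window (7.06% of all promoters) and CAGCAGG, a core of ZIC motifs, in the Pou3f3 window (10.5%). The TATA box TATAAA was in 1 Otx2 window (13.6%). The POU3F windows had a GC content of 57.7% to 67.7% and 15 to 24 CpG dinucleotides, against medians of 52.7% and 7 over all promoters. This did not set them apart from the Zic1 window (65.3% and 31) or the Zic5 window (62.7% and 15). The Otx2 windows had 41.7% to 53.7% and 6 to 16.

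Between day 2 and day 4 without Dox, Pou3f4, Otx1 and Pou3f2 rose steeply, Zic1, Otx2 and Pou3f3 rose less, and Zic2 and Zic5 fell. With Dox on day 4, the same 6 genes were lower than without it and Zic2 and Zic5 were higher. Because these are bulk samples, fewer cells of a type and less RNA per cell cannot be told apart.

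**Figure D1:**
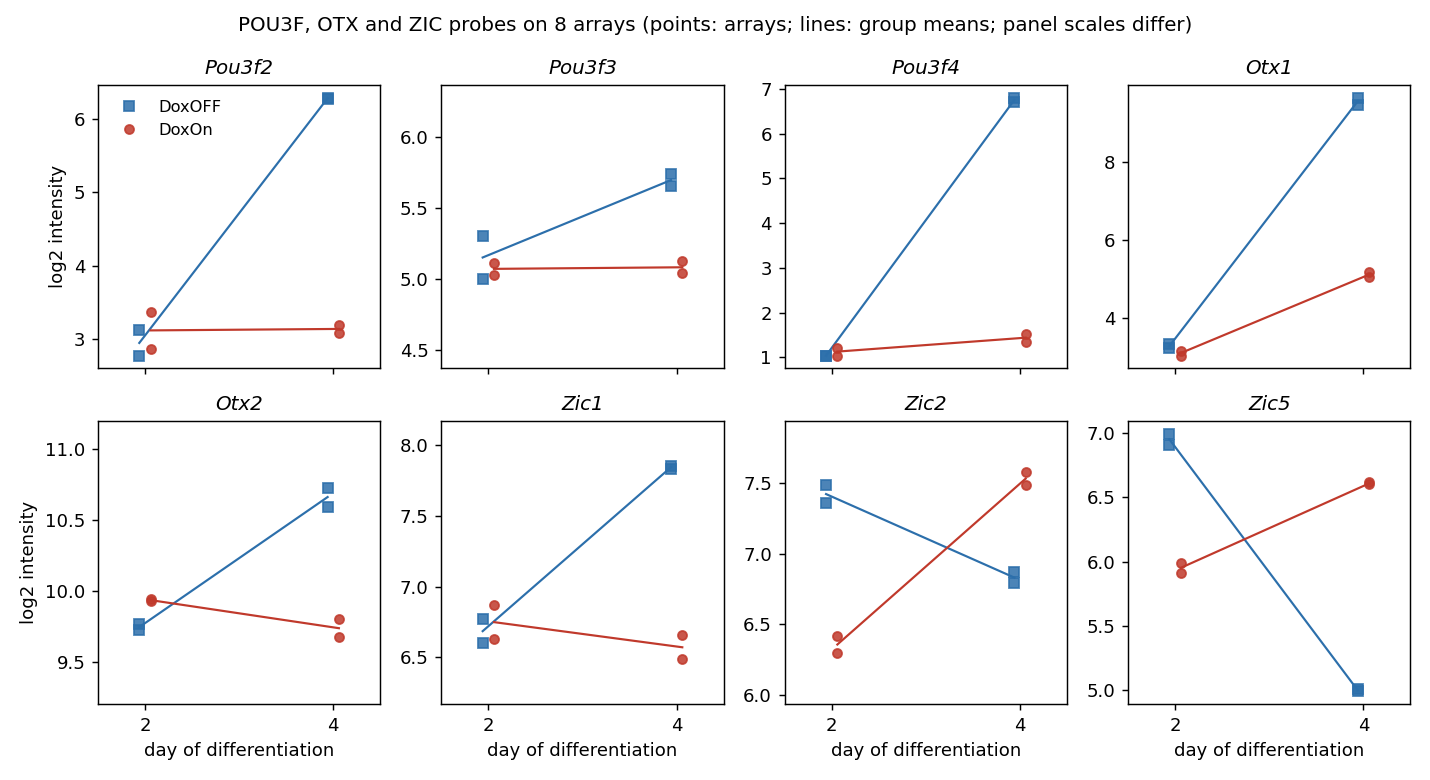
Log2 intensity of the 8 probes (vertical axis, scale differing between panels) on day 2 and day 4 (horizontal axis), where each point is 1 array, blue squares without Dox and red circles with Dox, and lines join group means. Pou3f2, Pou3f4 and Otx1 climb in the blue series, whereas the lines of Zic2 and Zic5 cross.

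Pou3f4, a POU-domain factor gene known from the neural tube, the hypothalamus and the inner ear, went from background to a clear signal. Its spots lay 82.3 and 109 blank SDs above the blank mean on the DoxOFF_day4 arrays, at log2 6.70 and 6.80. In DoxOFF_day2 they were not above background on either array, and in DoxOn_day2 on 1 of 2. On DoxOn_day4 the values were 1.35 and 1.53, which is 2.54 and 2.82 blank SDs above the blank mean and below the limit set by the negative control spots. Only the DoxOFF_day4 pair thus stood well clear of background. Without Dox the probe was at least 49.6-fold higher on day 4 than on day 2 (adjusted p = 4.58e-07). That bound sets the day-4 mean against the lowest level counted as above background on day 2. At day 4 it was 39.6-fold lower with Dox, a log2 change of -5.31 ± 0.11 (adjusted p = 8.1e-07), and ranked 10 in size among the probes that were lower.

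Pou3f2 encodes Brn2, a factor of neural progenitors and neurons that is also used to convert other cells into neurons. DoxOFF_day4 gave 6.28 and 6.29. The other groups lay far below it and overlapped each other, at 2.87 and 3.37 in DoxOn_day2, 2.77 and 3.12 in DoxOFF_day2, and 3.19 and 3.09 in DoxOn_day4. Only the day-4 arrays without Dox were high. Without Dox it rose 10.1-fold between the days (log2 change 3.34 ± 0.19, adjusted p = 2.27e-05), and with Dox the day-4 level was 8.85-fold lower than without (log2 change -3.15 ± 0.19, adjusted p = 4.07e-05). With Dox, the change from day 2 to day 4 was 0.020, with a 95% interval from -0.43 to 0.47.

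Pou3f3 encodes Brn1, which acts beside Brn2 in the cortex and also in the kidney. Its values were 5.03 and 5.11 in DoxOn_day2, 5.30 and 4.999 in DoxOFF_day2, 5.04 and 5.13 in DoxOn_day4, and 5.66 and 5.74 in DoxOFF_day4. The last pair lay above all the others, which overlapped. The gain over time without Dox was 1.46-fold (log2 change 0.55 ± 0.13, adjusted p = 0.0136), and the Dox arrays of day 4 were 1.53-fold lower (log2 change -0.62 ± 0.13, adjusted p = 0.0107). Both calls were close to the threshold. The Dox change ranged from -0.66 to -0.57 with any 1 array left out. Its call was lost without DoxOn_day4 replicate 1 (adjusted p = 0.0606) or without DoxOFF_day4 replicate 2 (adjusted p = 0.061). The call over time in Pou3f3 was lost without DoxOFF_day2 replicate 2 (adjusted p = 0.0602), without DoxOFF_day4 replicate 2 (adjusted p = 0.0696) and with only the arrays compared (adjusted p = 0.0566).

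Otx1, a homeobox gene of the forebrain, midbrain and sense organs, was highest in DoxOFF_day4, intermediate in DoxOn_day4 and low in both day-2 groups. The raw spots read 837 and 746 in DoxOFF_day4, 97.6 and 95.9 in DoxOn_day4, 62.0 and 63.3 in DoxOFF_day2, and 61.2 and 61.0 in DoxOn_day2. On the log2 scale these were 9.49 and 9.66, 5.16 and 5.05, 3.32 and 3.21, and 3.15 and 3.02. Both day-4 groups stood above both day-2 groups, and the day-4 groups stood far from each other. Without Dox the gain over time was 79.4-fold (log2 change 6.31 ± 0.11, adjusted p = 3.84e-07), the fourth in rank among probes that rose. With Dox, Otx1 still rose 4.07-fold from day 2 to day 4 (log2 change 2.02 ± 0.11, adjusted p = 9.22e-05). It was nevertheless 22.2-fold lower with Dox than without on day 4 (log2 change -4.47 ± 0.11, adjusted p = 1.31e-06).

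Otx2, which is needed for the forebrain and midbrain and is present in epiblast and visceral endoderm, was strongly above background throughout. It measured 9.94 and 9.93 in DoxOn_day2, 9.72 and 9.77 in DoxOFF_day2, 9.67 and 9.80 in DoxOn_day4, and 10.60 and 10.73 in DoxOFF_day4. The day-4 pair without Dox was again the high one, and all other arrays lay below it. It rose 1.89-fold over time without Dox (log2 change 0.92 ± 0.10, adjusted p = 0.000485) and was 1.90-fold lower with Dox on day 4 (log2 change -0.93 ± 0.10, adjusted p = 0.000665). DoxOn_day4 differed from DoxOFF_day2 by -0.0077 on the log2 scale, with a 95% interval from -0.25 to 0.23.

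Zic1, known from the dorsal neural tube, cerebellum and somites, measured 6.63 and 6.87 in DoxOn_day2, 6.77 and 6.60 in DoxOFF_day2, 6.66 and 6.49 in DoxOn_day4, and 7.85 and 7.83 in DoxOFF_day4. The first 3 groups overlapped and the last lay above them. The rise without Dox was 2.23-fold (log2 change 1.16 ± 0.13, adjusted p = 0.000473), and the level with Dox on day 4 was 2.41-fold lower (log2 change -1.27 ± 0.13, adjusted p = 0.000438). Its neighbour in the RefSeq annotation, Zic4, changed by -0.55 ± 0.26 with Dox on day 4, which missed the threshold (adjusted p = 0.17).

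Zic2, mutated in human holoprosencephaly and active in the epiblast and neural plate, ran the other way. It gave 6.42 and 6.30 in DoxOn_day2, 7.48 and 7.36 in DoxOFF_day2, 7.48 and 7.58 in DoxOn_day4, and 6.79 and 6.87 in DoxOFF_day4. Dox arrays were low on day 2 and high on day 4, and neither pair overlapped its control. The level was 2.09-fold lower with Dox on day 2 (log2 change -1.06 ± 0.10, adjusted p = 0.00149) and 1.62-fold higher on day 4 (log2 change 0.70 ± 0.10, adjusted p = 0.00269). Over time it fell by 0.59 on the log2 scale without Dox (SE 0.10, adjusted p = 0.00428) and rose by 1.17 ± 0.10 with it (adjusted p = 0.000488).

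Zic5, which lies next to Zic2 on chromosome 14 in the RefSeq annotation, changed in the same directions as Zic2 with Dox on each day and over time with and without Dox. Its changes were larger than those of Zic2 with Dox on day 4 and over time without Dox. They were smaller with Dox on day 2 and over time with Dox. For Zic5, DoxOn_day2 gave 5.99 and 5.91, DoxOFF_day2 6.90 and 6.99, DoxOn_day4 6.61 and 6.60, and DoxOFF_day4 5.01 and 4.99. No pair of groups overlapped. With Dox it was 2.00-fold lower on day 2 (log2 change -0.997 ± 0.09, adjusted p = 0.00114) and 3.04-fold higher on day 4 (log2 change 1.60 ± 0.09, adjusted p = 3.19e-05). Without Dox it was 3.85-fold lower on day 4 than on day 2 (log2 change -1.95 ± 0.09, adjusted p = 1.06e-05), and with Dox it rose by 0.65 ± 0.09 (adjusted p = 0.0034).

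In order of level, DoxOFF_day4 stood first for the POU3F genes, both OTX genes and Zic1. For Otx1 DoxOn_day4 came next and differed from both day-2 groups. The day-2 arrays of Otx1 did not overlap, but their difference of -0.18 ± 0.11 missed the threshold (adjusted p = 0.387). Behind DoxOFF_day4, adjacent groups of Pou3f2, Pou3f3, Otx2 and Zic1 did not differ past the threshold. Nor did those of Pou3f4, whose DoxOFF_day2 level was not above background. For Zic2 the order was DoxOn_day4, DoxOFF_day2, DoxOFF_day4 and DoxOn_day2, of which the first 2 did not differ past the threshold (0.11 ± 0.10, adjusted p = 0.55). For Zic5 it was DoxOFF_day2, DoxOn_day4, DoxOn_day2 and DoxOFF_day4, and the tested neighbours differed. DoxOn_day2 and DoxOFF_day4, which are neighbours in the orders of Zic2 and Zic5, were not tested against each other, and their arrays did not overlap in either gene.

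On day 2, 11.8% of all tested probes differed with Dox (2557 of 21661). Of the 8 genes 2 did, Zic2 and Zic5. Both were lower, as were 6.25% of all probes, while 5.55% were higher. Their log2 changes were -1.06 and -0.997, against a median over all probes of -0.0061. For the other 6 genes the change lay between -0.18 (Otx1) and 0.19 (Otx2). The widest 95% interval among them was that of Pou3f2, from -0.28 to 0.62, and the interval of Otx2 ran from -0.050 to 0.43. On these day-2 arrays, 7 of 10 tested visceral endoderm markers were lower in DoxOn_day2 and 1 was higher. Over all 11 measured genes of that list, the summed log2 intensity was 25.3 to 26.6 in DoxOn_day2 and 43.3 to 44.6 in DoxOFF_day2, and Ttr and Apoa1 were not above background in DoxOn_day2. Afp was not above background in either day-2 group. The largest fall was in Spink1 (log2 change -4.99 ± 0.20, adjusted p = 8.53e-05). Of 10 markers of naive pluripotency, 6 were higher in DoxOn_day2, among them Dppa3 (3.77 ± 0.16, adjusted p = 9.69e-05). Their summed log2 intensity was 71.2 to 71.3 against 57.7. The part of these cell-type markers in the Zic2 and Zic5 differences was not tested.

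On day 4, all 8 genes differed with Dox, where 29.9% of all tested probes passed the test (6483 of 21661). Pou3f2, Pou3f3, Pou3f4, Otx1, Otx2 and Zic1 were lower, as were 15.5% of all probes, and Zic2 and Zic5 were higher, as were 14.4%. The median log2 change was -1.10 over the 8 genes and -0.04 over all probes, and the median absolute change was 1.44 against 0.28. The members were chosen with earlier results of these data known, so this count describes them and gives no independent support.

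**Figure D2:**
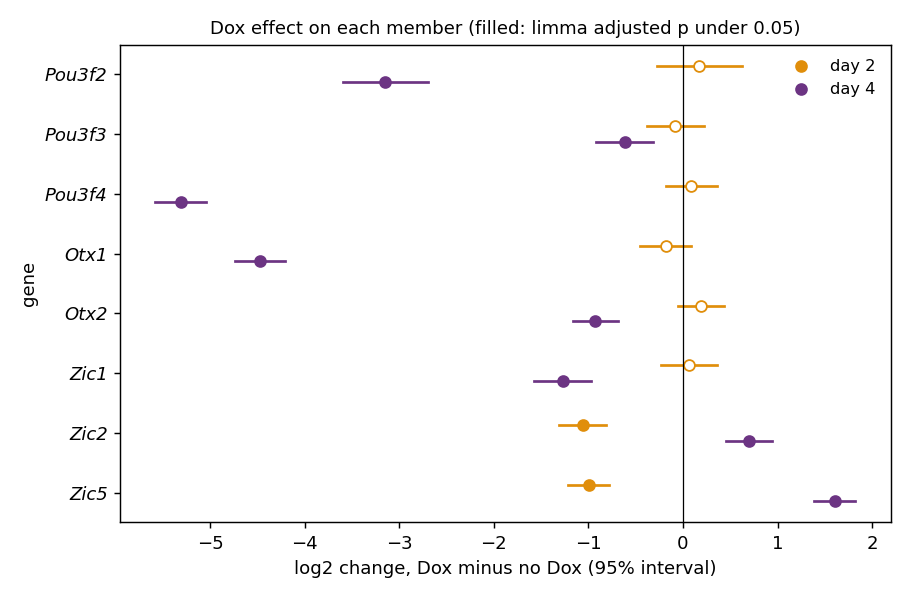
Log2 change with Dox against without (horizontal axis) for each gene, day 2 in orange and day 4 in purple. Bars are 95% intervals from the limma fit, and filled points passed an adjusted p of 0.05. On day 4 the points run from -5.31 for Pou3f4 to 1.60 for Zic5, while on day 2 only Zic2 and Zic5 are away from 0.

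In the interaction contrast, 22.1% of all probes differed between the days in their Dox change (11.1% higher and 11% lower). So did 7 of the 8 genes. Pou3f3 was the exception (-0.53 ± 0.18, adjusted p = 0.0783). It passed without DoxOFF_day2 replicate 1 (adjusted p = 0.0384) and with no background subtraction (adjusted p = 0.0382). Pou3f4, Otx1, Pou3f2, Zic1 and Otx2 had the more negative Dox change on day 4. Zic2 and Zic5 went from a negative Dox change on day 2 to a positive one, with differences of 1.76 ± 0.15 (adjusted p = 0.000332) and 2.60 ± 0.13 (adjusted p = 4.1e-05).

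Without Dox all 8 genes changed between day 2 and day 4, 6 upward and 2 downward, where 38.1% of all probes changed (20.2% higher and 17.9% lower). With Dox, 3 of 8 did (19% of all probes, 9.63% higher and 9.33% lower), namely Otx1, Zic2 and Zic5, all upward. These contrasts share arrays with the Dox contrasts of the same day, and the values of each are given side by side for that reason. Set against the DoxOFF_day2 arrays, the DoxOn_day4 level differed past the threshold in 2 of 8 genes. That count was near the share of all probes, 18% (8.72% higher and 9.27% lower). Otx1 was 3.58-fold higher (1.84 ± 0.11, adjusted p = 0.000125). Zic5 was 1.27-fold lower (-0.34 ± 0.09, adjusted p = 0.0457). That Zic5 call was lost when any 1 of the 8 arrays was left out, with adjusted p-values up to 0.168. For Pou3f2, Pou3f3, Otx2, Zic1 and Zic2 the differences lay between -0.11 and 0.19. The intervals of these 5 genes extended no lower than -0.41 and no higher than 0.64. Pou3f4, near background in both groups, changed by 0.40 ± 0.11 and narrowly missed the threshold (adjusted p = 0.0534).

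**Figure D3:**
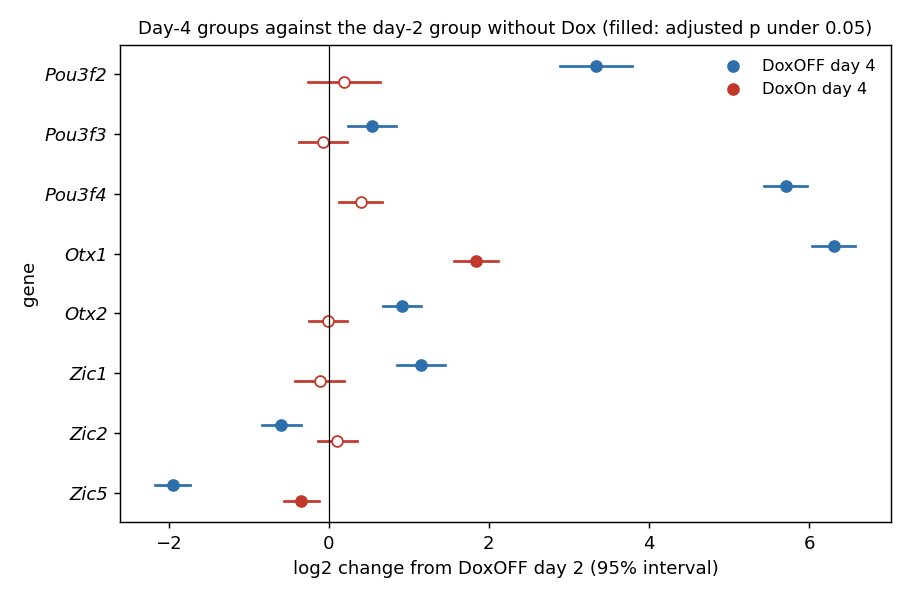
Log2 change of the day-4 groups from DoxOFF_day2 (horizontal axis) for each gene, blue for DoxOFF_day4 and red for DoxOn_day4. Bars are 95% intervals from the limma fit and filled points passed an adjusted p of 0.05. The blue points spread from -1.95 for Zic5 to 6.31 for Otx1, and the red ones stay between -0.34 and 1.84.

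The other genes of the same tissues, taken from fixed lists, did not all move with the members. Of 15 tested genes of the formative and primed epiblast, 9 were higher and 3 lower with Dox on day 4, against 14.4% and 15.5% of all probes. Their median log2 change was 1.24 (all probes -0.04). Utf1, a chromatin-associated pluripotency factor gene, changed by 7.30 ± 0.10 (adjusted p = 4.03e-07). Tdgf1, the gene of Cripto, a co-receptor for Nodal, changed by 7.14 ± 0.18 (adjusted p = 1.37e-06), and the epiblast growth factor gene Fgf5 by 4.65 ± 0.11 (adjusted p = 1.05e-06). Utf1 and Tdgf1 are also in the general pluripotency list. On day 4, Zic2 and Zic5 shared the direction of the 9 higher genes, these 3 among them, and not that of the 3 lower ones. In the same list, 8 genes fell and 5 rose over time without Dox, against 17.9% and 20.2% of all probes. Utf1 changed by -9.31 ± 0.10 over that time (adjusted p = 1.43e-07). On day 2, 1 gene of the list was higher and 3 were lower with Dox, where 11.8% of all probes changed.

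Of 18 tested forebrain and eye field genes, 2 changed with Dox on day 4, both downward, where 29.9% of all probes changed, and the median change was -0.0044. Pax6, a master gene of the eye and a neural progenitor gene, was 8.56-fold lower (-3.10 ± 0.16, adjusted p = 1.83e-05). Emx2, a cortical homeobox gene, was at least 5.54-fold lower (adjusted p = 1.19e-05) and was not above background in DoxOn_day4. Pax6 was already lower with Dox on day 2 (-1.55 ± 0.16, adjusted p = 0.00171), and without Dox it fell between the days (-1.26 ± 0.16, adjusted p = 0.000853), opposite to Otx1, Pou3f2 and Pou3f4. Emx2 rose over that time (2.35 ± 0.11, adjusted p = 1.12e-05), while Hesx1, a repressor gene of the anterior neural plate, fell (-1.16 ± 0.30, adjusted p = 0.0209).

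In the midbrain and hindbrain list, 7 of 15 tested genes were lower with Dox on day 4 and 2 were higher, with a median of -0.89. Of all probes, 15.5% were lower and 14.4% higher in that contrast. Msx3, of the dorsal neural tube, changed by -6.34 ± 0.25 (adjusted p = 7.1e-06) and Irx3 by -3.23 ± 0.14 (adjusted p = 1.12e-05). Wnt1, the signal of the midbrain-hindbrain boundary, changed by -3.72 ± 0.93 (adjusted p = 0.0239), and 1 of the 2 DoxOn_day4 arrays was above background. Without Dox, Msx3 rose by 6.06 ± 0.25 (adjusted p = 6.53e-06) between the days. Of 14 tested neural progenitor genes, 9 were lower and 1 higher with Dox on day 4, against 15.5% and 14.4% of all probes. Their median was -1.63. The retinoic acid-binding protein gene Crabp1 changed by -5.36 ± 0.13 (adjusted p = 1.05e-06), the radial glia gene Fabp7 by -5.29 ± 0.11 (adjusted p = 7.41e-07) and the Notch target Hes5 by -2.72 ± 0.15 (adjusted p = 2.77e-05). On day 2, 5 of the 14 were lower, as were 6.25% of all probes. Among them were Fabp7 at -1.69 ± 0.11 (adjusted p = 0.000311), Dll1 at -1.42 ± 0.13 (adjusted p = 0.00112) and Slc1a3 at -1.06 ± 0.16 (adjusted p = 0.0076).

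**Figure D4:**
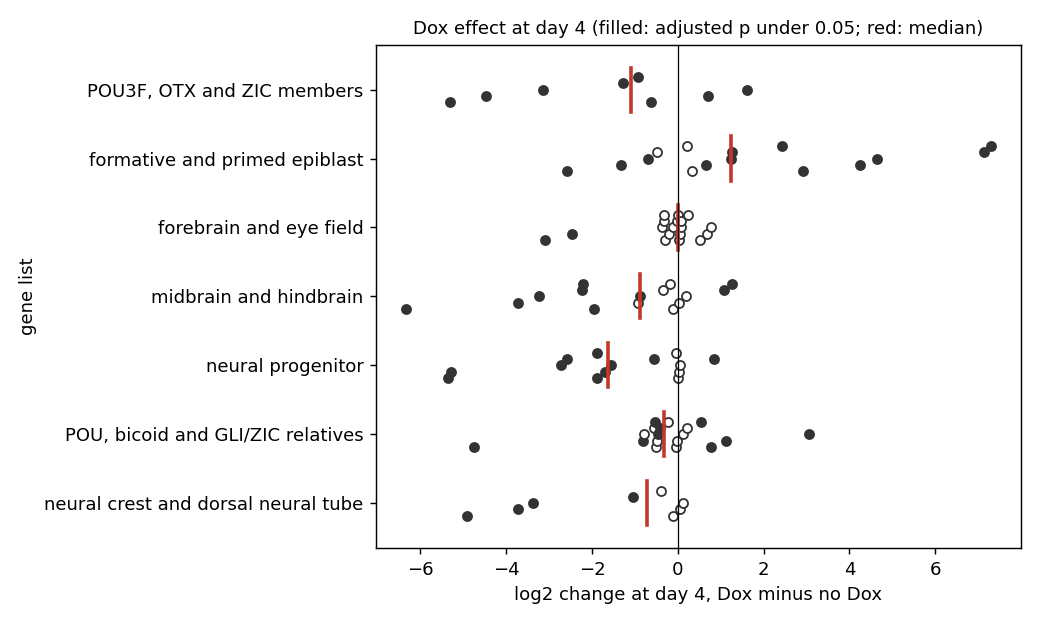
Log2 change with Dox on day 4 (horizontal axis) for the 8 members and for the tested genes of 6 lists, where filled points passed an adjusted p of 0.05 and red bars are list medians. The forebrain and eye field genes gather around 0 apart from Pax6 and Emx2, and the neural progenitor median is -1.63.

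Among 18 tested relatives of the same protein families, 5 were lower and 4 higher with Dox on day 4, against 15.5% and 14.4% of all probes. Their median was -0.32. Dmbx1, an OTX-related homeobox gene of the midbrain, was 27.0-fold lower (-4.76 ± 0.17, adjusted p = 4.8e-06), after a rise of 4.58 ± 0.17 without Dox (adjusted p = 3.94e-06). Gsc, a bicoid-class gene of the primitive streak and organizer, was 8.38-fold higher (3.07 ± 0.14, adjusted p = 1.38e-05). The POU gene Pou2f3 was higher with Dox than without by 1.11 ± 0.24 (adjusted p = 0.0133). Without Dox, Pou2f3 changed by -1.45 ± 0.24 between the days (adjusted p = 0.00325), and it was not above background on DoxOFF_day4 replicate 1. Thus genes of 1 protein family lay on both sides. Of 11 tested inhibitors of BMP, Nodal and Wnt signals, 3 were higher and 2 lower, against 14.4% and 15.5% of all probes. The activin-binding follistatin gene Fst changed by 5.70 ± 0.17 (adjusted p = 2.26e-06), the Nodal inhibitor gene Lefty1 by 4.17 ± 0.14 (adjusted p = 3.3e-06) and the Wnt inhibitor gene Sfrp1 by -3.13 ± 0.14 (adjusted p = 1.04e-05).

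Markers of other cell types were also called with Dox on day 4, where 14.4% of all probes were higher and 15.5% lower. All 9 tested markers of the primitive streak and early mesoderm were higher. Over the 10 measured genes of that list the summed log2 intensity was 69.4 to 69.9 in DoxOn_day4 against 37.5 in DoxOFF_day4, and Mesp1 was not above background in DoxOFF_day4. Of 6 tested general pluripotency genes, 5 were higher (55.9 to 56.5 against 29.2 to 29.6), with Nanog 94.1-fold higher (6.56 ± 0.18, adjusted p = 1.61e-06). Of 10 naive pluripotency genes 7 were higher (55.6 to 56.6 against 36.6 to 38.4). Of 8 tested neural crest and dorsal neural tube markers 4 were lower, among them Pax7 (-4.92 ± 0.15, adjusted p = 2.25e-06) and Pax3 (-3.37 ± 0.22, adjusted p = 6.26e-05), and the sums over 9 measured genes were 25.4 to 29.5 against 40.9 to 41.0. Of 9 neuron markers 3 were lower and 1 higher (40.6 to 41.2 against 43.2 to 43.4). Of 10 tested visceral endoderm markers 3 were higher and 3 lower. Foxa2 changed by 3.20 ± 0.23 (adjusted p = 9.64e-05) and Gata6 by 1.40 ± 0.21 (adjusted p = 0.00262). Dab2 changed by -1.93 ± 0.33 (adjusted p = 0.00473) and was not above background in DoxOn_day4. Visceral endoderm sums over 11 measured genes were 27.2 to 27.8 with Dox and 24.4 to 26.6 without, with Apoa1 and Afp not above background in either group. Anterior visceral endoderm sums over 5 genes were 26.7 to 26.9 and 15.9 to 16.3, with 2 genes called, Lhx1 (4.93 ± 0.09, adjusted p = 6.36e-07) and Lefty1. Somite and dermomyotome sums over 7 genes were 20.3 to 20.9 and 23.3 to 23.5. Of these 7 genes 1 was lower, Pax3, which is also in the dorsal neural tube list, and 1 higher, Myf5. That count was near the share of all probes called, 29.9%. The part of these cell types in the day-4 differences of the members was not tested.

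Genes with the most similar profiles over the 8 arrays were found among 15399 named genes by the smallest root mean square difference of centred log2 values, for the 6 members whose group means spanned at least 1. Pou3f4 was matched by Wfdc1 (difference 0.23, r = 0.998 over 8 arrays), Abcd2 (0.31) and Pax7 (0.32), and Pou3f2 by Scg3 (0.19), Edn1 (0.20) and Neto1 (0.21). Wfdc1, Edn1 and Neto1 had a day-2 Dox change of exactly 0, as values at the floor give. Their likeness thus rests largely on the DoxOFF_day4 arrays, the only high ones of Pou3f4 and Pou3f2. Otx1 had looser matches in Fabp7 (0.64), Ptn (0.65) and Zfp521 (0.66), whose r lay between 0.97 and 0.98. For Zic1 the closest were Ro60 (0.10), Gdpd2 (0.10) and Tubb2a (0.11), and for Zic2 Rgs7bp (0.15), Trappc6a (0.16) and Itgb1 (0.16). Zic5 was matched by Rapgef5 and Lpin1 (0.11 each) and Dnajc22 (0.15). Picked for likeness over the same arrays, the matches of Zic5 share its crossing, with Rapgef5 at -1.09 on day 2 and 1.51 on day 4 for the Dox change. These are descriptions over arrays that share 4 groups.

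The size of a change depended on how background was removed. With no subtraction, all 8 day-4 calls and their directions were kept, but the log2 changes of low probes shrank, to -1.48 for Pou3f4, -1.05 for Pou3f2, -3.18 for Otx1, -0.26 for Pou3f3 and 0.80 for Zic5. Fitted on the authors' deposited table, the day-4 changes were -5.34 for Pou3f4, -4.46 for Otx1, -3.14 for Pou3f2 and 1.63 for Zic5. With normexp (offset 50) on the background column of the scanner files, limma called 0 of the 8 members on day 4, with 3 at an unadjusted p under 0.05, and 0 of 21661 probes. That column followed the spot signal across spots at r = 0.984 to 0.998 on each array.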

How the data were processed

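Total RNA of 8 samples (2 per group) was amplified to amino allyl aRNA and coupled to Cy5, per the labels' protocols. The deposited scanner files give a median intensity per spot at 635 nm, joined by the scanner from 3 gains, per the file headers. The series' value table, used as an alternative, holds intensity values that the authors had scaled to a common median, as its values show. No source used here gives the processing steps behind that table.

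From the spot medians, the mean of each array's 2734 to 2736 unflagged blank spots was subtracted, the arrays were quantile normalised, and values were floored at 2.06 (2 blank SDs, median over arrays) and log2 transformed. Probes above the blank mean plus 2 SD on at least 2 arrays and with no flagged spot were tested (21661 of 23473) with limma 3.58.1 in R 4.3.3. The fit gave each group 1 mean over all 8 arrays (4 residual degrees of freedom), and p-values were 2-sided and adjusted by Benjamini-Hochberg over all tested probes, with a threshold of 0.05. An error after ± is the standard error of a log2 change. Where no array of a group was above background, a fold is given as a lower bound against the lowest level counted as above background. The script was checked on simulated data.

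Symbols came from the platform annotation (16631 probes with 1 symbol, 6842 without a single one), updated for 3947 probes through RefSeq. No different probes of a member existed to compare. The members and lists were chosen with earlier results of these data known. In each list, up to 3 called genes with the largest absolute change were named for the Dox contrasts and for time without Dox. Zic4, as a neighbour, and Afp, as a marker, were named outside that rule after their values were seen. The files name no slide or scan batch, and their number of arrays limits the precision. Other background corrections, scalings, floors, filters, fits and left-out arrays were tried.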

Additional observations from a re-analysis of the deposited data

Results flagged for a closer look

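In the interaction contrast of the limma fit, the Dox change differed between day 4 and day 2 for 7 of the 8 genes. Each group had 2 arrays, and 22.1% of all probes differed in that contrast. The difference, day 4 minus day 2 on the log2 scale, was -4.29 for Otx1 (adjusted p = 1.4e-05) and -3.32 for Pou3f2 (adjusted p = 0.000284). It was smaller for Zic1, at -1.33 (adjusted p = 0.00252), and for Otx2, at -1.12 (adjusted p = 0.0021). The sign was positive for Zic2, at 1.76 (adjusted p = 0.000332), and for Zic5, at 2.60 (adjusted p = 4.1e-05). Only these 2 genes of the 8 had a Dox change past the threshold on both days, with opposite signs on day 2 and day 4. For Pou3f4 the fit gave -5.40 (adjusted p = 6.83e-06), a value set in part by the floor, since both DoxOFF_day2 arrays and 1 DoxOn_day2 array were not above background and DoxOn_day4 lay below the limit of the negative control spots. Groups of 2 arrays allow no test for outlying arrays.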

How the results depend on the processing

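For the 8 genes in 6 comparisons, 994 values under other settings were compared with the reported ones. Of these, 920 kept their direction and their side of the threshold, 41 lost a call, 5 gained one and 28 changed sign. Values that changed sign were counted only as such, also where a call was lost with it. Under normexp (offset 50), limma called 0 members in each comparison, and at an unadjusted p under 0.05 it called 0 members with Dox on day 2, 3 on day 4, 2 in the difference between the days, 2 over time without Dox, 0 over time with Dox and 0 in Dox day 4 against no Dox day 2. It called 2, 0, 0, 0, 3 and 0 of all probes. Signs changed there in Otx2 (-0.50 on day 2, 0.060 on day 4, 0.56 for the difference, 0.92 for time with Dox, 0.42 for Dox day 4 against no Dox day 2), Pou3f3 (0.025 on day 4, 0.029 for the difference, -0.040 and -0.011 for time without and with Dox), Zic5 (-0.0056 on day 4, -0.019 for time with Dox) and Pou3f4 (-0.0074 on day 2). The cause was not tested. The remaining sign changes were in differences that were not called. Pou3f4 on day 2 was -0.0069 with no background correction and -0.060 with a floor of 1 blank SD. With 75th percentile scaling, Pou3f2 and Pou3f3 over time with Dox were -0.013 and -0.010. With 1 array left out, the day-2 Dox change ranged from -0.080 to 0.42 for Pou3f2, from -0.23 to 0.073 for Pou3f3 and from -0.055 to 0.18 for Zic1. Over time with Dox, Pou3f2 ranged from -0.23 to 0.27 and Pou3f3 from -0.032 to 0.054. For Dox day 4 against no Dox day 2, Pou3f3 ranged from -0.22 to 0.084 and Otx2 from -0.074 to 0.055. In that comparison 1 member instead of 2 was called under median scaling, under the replicate block, with only the arrays compared, and without each array in turn (1 to 1), the loss being Zic5. Zic5 also lost its call in the authors' table (adjusted p = 0.0904), where Pou3f4 gained one. Adjusted p-values of Pou3f4 there fell to 0.0439 with no filter, 0.0419 with the negative control filter and 0.0318 in the authors' table.

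The main fit did not treat the replicate numbers as pairs. Deviations of same-numbered arrays correlated from -0.27 to 0.23 across 21661 probes, which does not settle whether the numbers mark pairs or a shared batch. With the replicate block, Zic5 for Dox day 4 against no Dox day 2 had an adjusted p of 0.0851. The block called 2 members on day 2, 8 on day 4, 7 for the difference, 8 for time without Dox and 3 for time with Dox. In the same order it called 2009, 5915, 4154, 7754 and 3545 of all 21661 probes. Requiring a signal above background on all 8 arrays left out Pou3f4, and the authors' table lacks its DoxOn_day2 replicate 2. No other probe of a member could be tried, and for the difference between days, which uses all arrays, a fit on only the arrays compared is no alternative. Pou3f4 lay near background in 3 of 4 groups, which limits its day-2 comparison.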
